A study of Mus musculus with 6 samples.

Results

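Col3a1, Col6a2, Postn, Thbs2, Aspn and Igfbp5 are 6 genes of the extracellular matrix that were described here in RANKL-stimulated mouse bone marrow macrophages (BMMs) cultured without or with mogrol. They were taken by gene symbol from the deposited table of 109 genes, which held each of them once. Transcripts of these genes are best known from fibroblasts and bone-forming cells rather than from macrophages, and the question was how they stood in the control and mogrol-treated cells. BMMs are precursor cells flushed from the marrow of C57BL/6 mice (the strain in the labels, C57BL/6J in the study's methods) and grown with the cytokine M-CSF, and RANKL is the cytokine that makes them fuse into bone-resorbing osteoclasts. All 6 libraries came from BMMs given 30 ng/ml RANKL for 5 days. The 3 control libraries had no mogrol, and the 3 mogrol libraries had 20 μM mogrol, the aglycon of the sweet mogrosides of Siraitia grosvenorii. No group without RANKL was in the table. The study's methods give at least 3 independent experiments for its data as a whole. Neither they nor the labels say whether the libraries of a group came from separate animals or cultures. The p-values are therefore taken to measure only the spread between these libraries. That spread was estimated partly from all 109 genes, not from each gene alone.

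Type III collagen forms thin fibrils beside type I collagen in loose connective tissue, and type VI collagen forms a beaded network around cells. Matricellular proteins such as periostin and thrombospondin-2 are secreted into the matrix, where they act on cells and on fibril assembly rather than bearing load. Asporin is a small leucine-rich proteoglycan that binds collagen, and IGFBP5 is a secreted protein that binds insulin-like growth factors and also attaches to the matrix. Periostin takes its name from the periosteum, the cell layer around bone in which it is abundant.

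The read totals of the 6 libraries, worked out from the deposited values, were 18097882 to 18652439. Which reads the authors counted in these totals is not given in the sources used here. Reads of the 109 genes made up 2.04 to 2.27% of the total of a control library and 1.21 to 1.25% of that of a mogrol library. On average over the 109 genes, any pair of libraries of one group differed by more than counting noise. The chi-square per degree of freedom was 5.23 to 40.5, so each library was taken as 1 sample. Genes with many reads weigh heavily in this average. Over the 3 control libraries the value for single genes was 1025 for Ctsk, and 1.47 (Postn) to 15.2 (Col3a1) for the 6 genes. The 109 genes had been selected by the authors from these same libraries for an adjusted p-value and a 2-fold change between the groups. A new test on them is therefore not independent of that selection, and it gives the size and the error of a difference rather than evidence that a difference exists.

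The 6 genes lie on 5 chromosomes of the GRCm38 build. Their start regions differed in base composition, as the 250 bases before the RefSeq start site show (RefSeq sequences on GRCm38.p6). The GC content was 52.0% for Postn, 35.2% for Col3a1, 46.8% for Thbs2, 59.2% for Col6a2, 30.0% for Aspn and 58.8% for Igfbp5, against a median of 52.4% over 32851 such windows. The motif TATAAA, the core of the TATA box, was looked for on both strands, so that TTTATA also counts. It was present in 4 of the 6 windows and in 12.4% of all windows. These 4 windows are printed because they show how differently the matches are placed, and they are written 5′ to 3′ on the strand of the gene with every motif match in capitals. Postn is at chr3:54360857-54361106 (plus strand), Col3a1 at chr1:45311288-45311537 (plus strand), Thbs2 at chr17:14694263-14694512 (minus strand) and Aspn at chr13:49544193-49544442 (plus strand).
Postn: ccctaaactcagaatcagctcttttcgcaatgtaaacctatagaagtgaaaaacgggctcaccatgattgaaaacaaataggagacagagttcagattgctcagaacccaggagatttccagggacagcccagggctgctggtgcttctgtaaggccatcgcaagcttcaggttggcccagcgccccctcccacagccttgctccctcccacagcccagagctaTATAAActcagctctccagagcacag
Col3a1: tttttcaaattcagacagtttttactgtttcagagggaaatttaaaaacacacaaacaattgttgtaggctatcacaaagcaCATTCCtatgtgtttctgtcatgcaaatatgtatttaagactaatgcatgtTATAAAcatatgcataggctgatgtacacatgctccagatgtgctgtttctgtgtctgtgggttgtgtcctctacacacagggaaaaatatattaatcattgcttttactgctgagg
Thbs2: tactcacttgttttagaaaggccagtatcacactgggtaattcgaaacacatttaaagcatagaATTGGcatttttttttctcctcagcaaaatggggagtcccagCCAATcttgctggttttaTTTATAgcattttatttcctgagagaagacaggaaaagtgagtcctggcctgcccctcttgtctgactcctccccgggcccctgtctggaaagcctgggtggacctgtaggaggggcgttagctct
Aspn: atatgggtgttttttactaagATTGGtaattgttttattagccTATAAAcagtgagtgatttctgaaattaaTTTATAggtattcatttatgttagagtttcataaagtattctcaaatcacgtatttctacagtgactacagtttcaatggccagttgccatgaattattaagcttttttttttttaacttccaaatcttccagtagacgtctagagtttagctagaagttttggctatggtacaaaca
The match of Postn began 26 bases before the start site, and that of Col3a1 began 117 bases before it. Thbs2 had a reverse match 126 bases before its start site, and Aspn had matches at 207 bases and, reversed, at 178 bases. The other capitals mark CCAAT, the CCAAT box, and GGAATG, the core bound by TEAD factors, which were also read on both strands as ATTGG and CATTCC and overlap no other match. CCAAT stood in the windows of Thbs2 and Aspn and in 33.8% of all windows, and GGAATG in those of Col3a1 and Igfbp5 and in 12.6% of all windows. TGANTCA, a motif of AP-1 factors, was in none of the 6 windows and in 6.75% of all. TGTGGT, the core motif of RUNX factors with the reverse form ACCACA, was also in none of the 6 and in 14.0% of all. A match describes these letters only, and the start sites used in these cells were not measured.

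All 6 genes were lower with mogrol, each passing an adjusted p of 0.05, as 58.7% of the 109 genes did in that direction. The fall was 3.39-fold for Aspn, 2.72-fold for Postn, 2.58-fold for Col3a1, 2.21-fold for Thbs2, 2.01-fold for Col6a2 and 1.99-fold for Igfbp5. In every gene all 3 mogrol libraries lay below all 3 control libraries. In bulk RNA fewer cells that express a gene and less of its RNA per cell cannot be told apart, which holds for each of the 6 genes.

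Col3a1, which encodes the chain of type III collagen, had the most reads of the 6 genes (ENSMUSG00000026043, chr1:45311538-45349706, plus strand, 50 merged exons). Its level was 62.53, 58.72 and 62.74 FPKM without mogrol and 22.52, 22.81 and 25.88 FPKM with it. FPKM are reads scaled by transcript length and by the read total of the library, so that genes of unequal length can be compared. The lowest control value was 2.27 times the highest mogrol value. The level fell from 602 ± 22.2 to 233 ± 18.3 RPM (reads per 1000000 reads of the library, SD, n = 3), which left 38.7% of the control level. The log2 fold change was -1.37 (adjusted p = 5.5e-48 by edgeR's quasi-likelihood test, standard error 0.0814). The annotated miRNA gene Gm47302 (chr1:45311673-45311813) lies within Col3a1 on the same strand, and 141 exon bases are shared by both.

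Col6a2 encodes the alpha-2 chain of type VI collagen (ENSMUSG00000020241, chr10:76595762-76623630, minus strand, 29 merged exons). It had 28.48, 27.69 and 30.66 FPKM without mogrol and 13.55, 14.16 and 15.44 FPKM with it. No mogrol library reached a control library, and the lowest control value was 1.79 times the highest mogrol value. The level fell from 241 ± 12.8 to 119.7 ± 8.05 RPM (SD over 3 libraries), for which the log2 fold change was -1.01 (adjusted p = 2.1e-28 by edgeR, standard error 0.0839). This gene lay at the 2-fold limit. Without control replicate 3 or without mogrol replicate 1 its log2 fold change was -0.97, and without mogrol replicate 2 it was -0.998 and also short of the limit.

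Postn encodes periostin, a matricellular protein of periosteum and other collagen-rich tissue (ENSMUSG00000027750, chr3:54361109-54391037, plus strand, 22 merged exons). Its level was 39.07, 38.14 and 37.98 FPKM without mogrol and 13.91, 14.68 and 13.81 FPKM with it. The libraries of each group lay close together, with a coefficient of variation of 1.54% without and 3.36% with mogrol, and the gap between the groups was the widest of the 6 genes: the lowest control value was 2.59 times the highest mogrol value. Postn fell from 334 ± 5.16 to 123 ± 4.13 RPM (SD, n = 3), which left 36.8%. The log2 fold change was -1.44 (adjusted p = 1.2e-49 by edgeR's quasi-likelihood test, standard error 0.0837).

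Thbs2 encodes thrombospondin-2, a matricellular protein that limits angiogenesis and takes part in collagen fibril assembly (ENSMUSG00000023885, chr17:14665500-14694235, minus strand, 21 merged exons). Control libraries had 56.37, 59.65 and 59.26 FPKM and mogrol libraries had 25.09, 27.31 and 26.92 FPKM. The groups did not overlap, and the lowest control value was 2.06 times the highest mogrol value. The level fell from 409 ± 12.5 to 185 ± 8.30 RPM (SD, n = 3), the log2 fold change being -1.14 (adjusted p = 7.6e-36 by edgeR, standard error 0.082). Control replicate 1 was the lowest control library for Thbs2, whereas it was the highest for Postn.

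Aspn encodes asporin, the proteoglycan described above (ENSMUSG00000021388, chr13:49544443-49567565, plus strand, 8 merged exons). It was the least abundant of the 6 genes. It rested on 83, 52 and 63 reads without mogrol and on 20, 13 and 25 reads with it, or 1.9, 1.18 and 1.47 against 0.46, 0.31 and 0.58 FPKM. The groups did not overlap, but the libraries within a group spread more widely than for any other of the 6 genes, with a coefficient of variation of 23.8% without and 30.6% with mogrol. Aspn had the steepest fall, from 3.58 ± 0.853 to 1.05 ± 0.322 RPM (SD, n = 3), and also the least certain one. Its log2 fold change of -1.75 (adjusted p = 1.2e-09 by edgeR, standard error 0.281) had a 95% interval from -2.31 to -1.20, which holds the fold changes of Postn and Col3a1. Aspn lies within the gene Cenpp, which is transcribed from the opposite strand and shares 7 exon bases with it, and whether reads were counted by strand is not given in the sources used here.

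Igfbp5 encodes the growth factor binding protein described above (ENSMUSG00000026185, chr1:72857932-72874884, minus strand, 4 merged exons). It had 7.59, 8.73 and 9.55 FPKM without mogrol and 4.52, 4.51 and 3.96 FPKM with it. The groups came closest to each other here, since the lowest control value was 1.68 times the highest mogrol value. Igfbp5 fell from 51.8 ± 5.91 to 26.0 ± 1.92 RPM (SD over 3 libraries), for which the log2 fold change was -0.99 (adjusted p = 6.1e-20 by edgeR, standard error 0.102). It thus passed the adjusted p-value but not the 2-fold limit. Without control replicate 1, its lowest control library, the log2 fold change was -1.08 and beyond the limit, as it also was without mogrol replicate 1 (-1.03) or mogrol replicate 2 (-1.02).

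**Figure D1:**
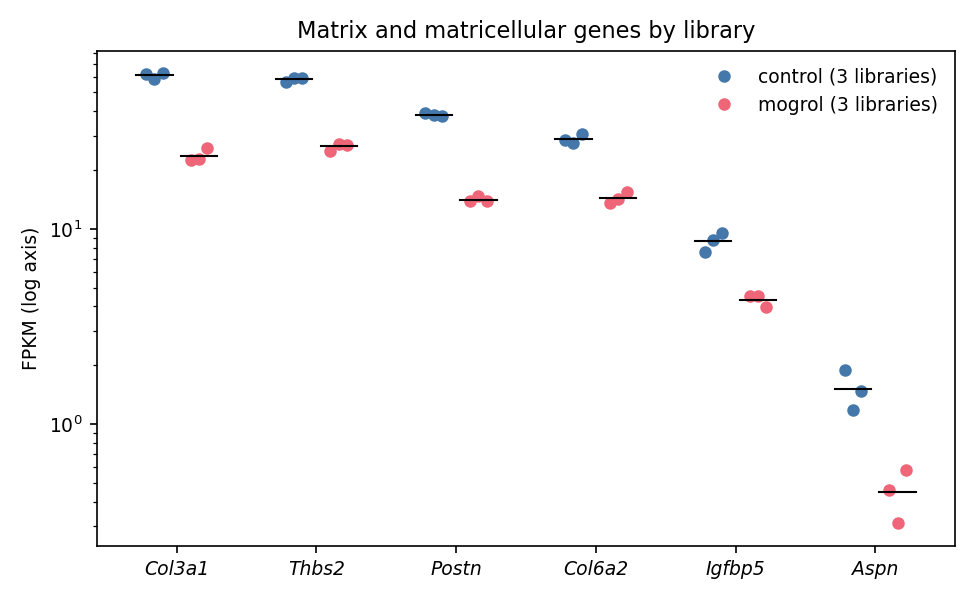
Level of each of the 6 genes in FPKM (vertical log axis) in 3 control libraries (blue) and 3 mogrol libraries (red), with the group mean as a black line. In each gene the 3 mogrol points lie below the 3 control points, and the points of Aspn, at 0.31 to 1.9 FPKM, are the most scattered.

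By level per length, the order in control cells was Col3a1 (mean 61.3 FPKM), Thbs2 (58.4), Postn (38.4), Col6a2 (28.9), Igfbp5 (8.62) and Aspn (1.52). Col3a1 and Thbs2 overlapped between libraries and were not separated, whereas every other neighbouring pair in that order was. In mogrol-treated cells the order was Thbs2 (26.4 FPKM), Col3a1 (23.7), Col6a2 (14.4), Postn (14.1), Igfbp5 (4.33) and Aspn (0.45). There the ranges of Thbs2 and Col3a1 overlapped, and so did those of Col6a2 and Postn, so that Postn and Col6a2 were separated in control cells and not after mogrol.

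Of the 6 genes, all but Igfbp5 were also more than 2-fold lower, 5 of 6 against a background of 56.9% of the table. Groups that did not overlap, with mogrol lower, were found for all 6 genes and for 58.7% of the table. The remaining genes of the table went the other way, 41.3% being more than 2-fold higher. The median log2 fold change was -1.26 over the 6 genes, -1.09 over all 109 genes and -1.41 over the 64 that were lower. Counted from the deepest fall among those 64, Aspn was at place 17, Postn at 30, Col3a1 at 37, Thbs2 at 52, Col6a2 at 62 and Igfbp5 at 63. Col6a2 and Igfbp5 thus stood at the end of the lowered genes nearest to the selection limit.

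**Figure D2:**
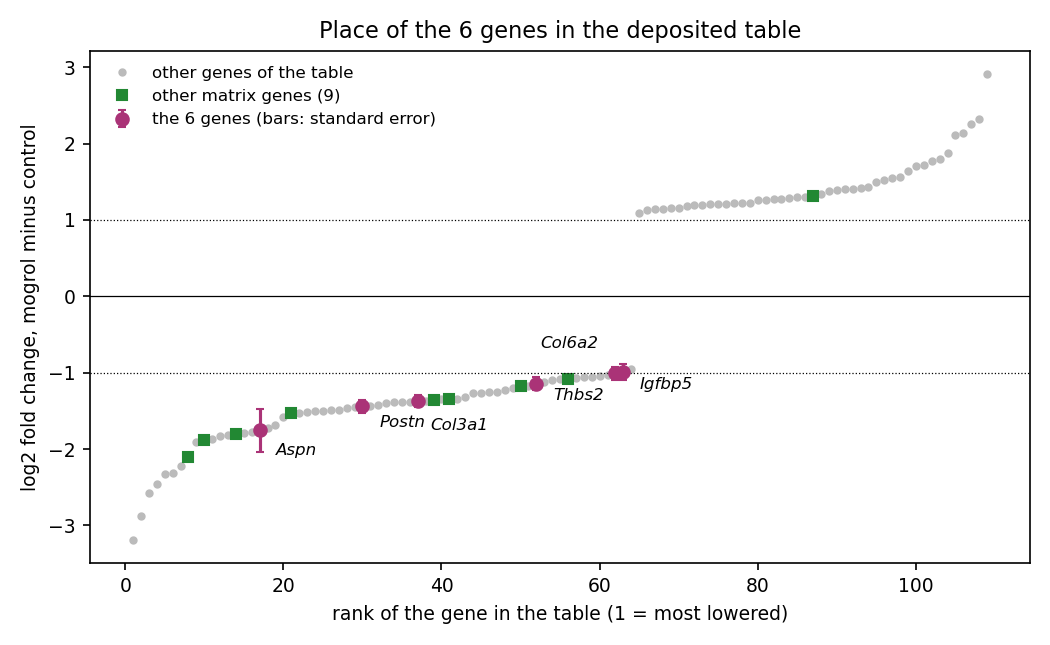
Log2 fold change (mogrol minus control, vertical axis) of all 109 genes in rank order (horizontal axis, 1 being the most lowered), with the 6 genes in purple (bars, standard error), the 9 other matrix genes as green squares and the rest in grey; dotted lines mark 2-fold. The 6 genes run from Aspn at -1.75 to Igfbp5 at -0.99, and 1 of the 9 green squares, Mmp12, lies above 0.

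Together the 6 genes had 1636, 1612 and 1677 RPM without mogrol and 659, 689 and 716 RPM with it. The mean went from 1642 ± 33.2 to 688 ± 28.8 RPM (SD, n = 3), so that 41.9% was left, a log2 ratio of -1.25. The 4 most abundant genes, Col3a1, Thbs2, Postn and Col6a2, set this sum. In FPKM the sum was 197 ± 3.94 without and 83.5 ± 3.28 with mogrol (SD, n = 3). Within that sum the share of Postn was 19.5% ± 0.573 without and 16.9% ± 0.869 with mogrol, and the share of Col3a1 was 31.1% ± 0.831 and 28.4% ± 1.35. The share of Thbs2 was 29.6% ± 1.00 in control cells and 31.7% ± 0.808 with mogrol, and that of Col6a2 was 14.7% ± 0.483 and 17.2% ± 0.530. Igfbp5 held 4.37% ± 0.445 and 5.20% ± 0.559, and Aspn 0.769% ± 0.184 and 0.538% ± 0.153 (SD, n = 3 throughout).

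The ratio of 2 genes within a library does not depend on how the library is scaled, and all 15 pairs of the 6 genes were compared in this way. In 8 of the 15 pairs the control and mogrol libraries did not overlap. The same held for 35.7% of the 2016 pairs that the 64 lower genes form, and for 67.2% of the 5886 pairs of the whole table, in which genes that rose are also set against genes that fell. The 15 pairs share 6 genes and are not independent, so nothing particular to these genes is read from their count. A 2-sided exact permutation test gave p = 0.1 for each of the 8, which is the smallest value that 3 against 3 libraries allow, and 0.1875 after Benjamini-Hochberg adjustment over the 15 pairs, so no pair could pass 0.05. The ratio of Postn to Col6a2 was 1.37, 1.38 and 1.24 in the controls, and with mogrol it was 1.03, 1.04 and 0.894, a log2 difference of -0.43. For Col3a1 to Col6a2 it was 2.20, 2.12 and 2.05 against 1.66, 1.61 and 1.68, a log2 difference of -0.36. Postn and Col3a1 were thus lower relative to Col6a2 in every mogrol library than in any control library. They were also lower relative to Thbs2 (log2 differences of -0.30 for Postn and -0.23 for Col3a1) and to Igfbp5 (-0.45 for Postn and -0.38 for Col3a1), again without overlap. For Col3a1 to Igfbp5 the margin was narrow, with a lowest control ratio of 6.57 and a highest mogrol ratio of 6.54. The ratio of Thbs2 to Col6a2 was 1.98, 2.15 and 1.933 against 1.85, 1.929 and 1.74, the least of the 8 differences at -0.13. These groups all but touched. The last of the 8 was Col6a2 to Aspn, at 15, 23.5 and 20.9 against 29.5, 45.7 and 26.6.

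The ratio of Postn to Col3a1 was 0.625, 0.650 and 0.605 in the controls, and with mogrol it was 0.618, 0.644 and 0.534, which overlapped (log2 difference -0.07, exact permutation p = 0.6). Col6a2 to Igfbp5 overlapped as well, with a log2 difference of -0.02 (exact permutation p = 0.8). Overlap with 3 libraries a group does not show that the genes of a pair changed alike. Thbs2 to Igfbp5 also overlapped (-0.15), and so did the other 4 pairs with Aspn, their log2 differences lying between -0.78 for Aspn to Igfbp5 and 0.63 for Thbs2 to Aspn.

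**Figure D3:**
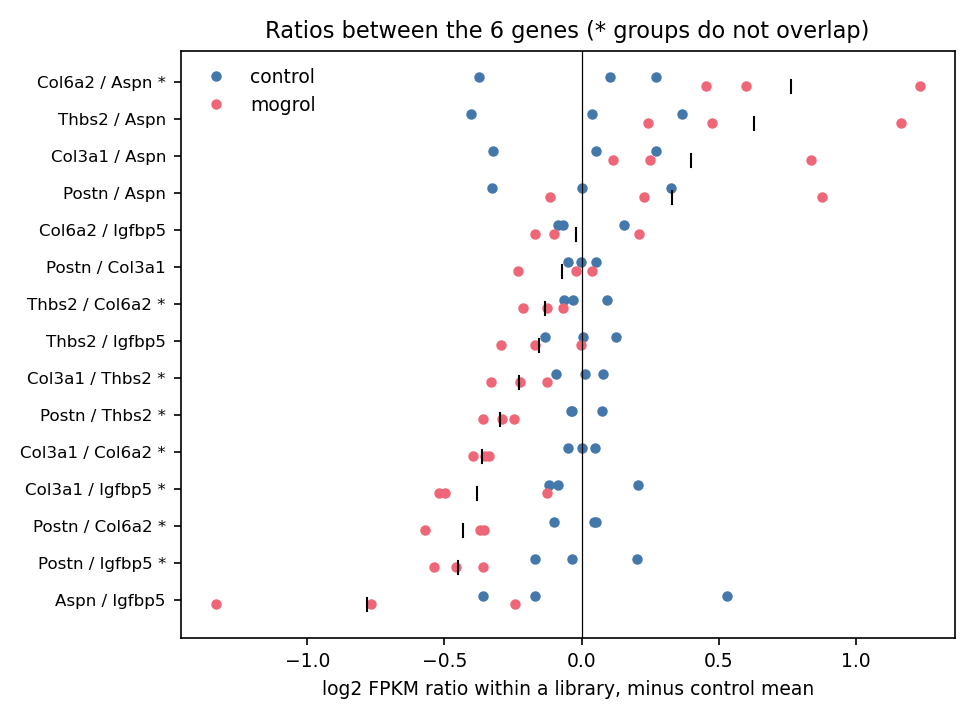
Log2 of the FPKM ratio of 2 of the 6 genes within a library, less the mean of the control libraries (horizontal axis), for 15 pairs (rows), with control libraries in blue, mogrol libraries in red and the mogrol mean as a black tick. The 8 pairs with an asterisk have groups that do not overlap, 7 of them to the left of 0, and the pairs with Aspn are the most spread.

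A list of 73 genes for matrix proteins, their modifying enzymes and matrix proteases held 9 further genes that were in the table, and the other members of the list were not analysed here. Of these 9, 8 were more than 2-fold lower with mogrol, against 56.9% of the table, and 1 was higher, with a median log2 fold change of -1.36. The selection of the table for 2-fold changes left little but their direction open. The list was also drawn up with earlier results of these data known, so these counts are descriptions only. Among structural proteins, Col10a1, a collagen of hypertrophic cartilage, went from 3.65 ± 0.801 to 1.43 ± 0.168 FPKM (SD, n = 3). Ibsp, the integrin-binding sialoprotein of mineralized tissue, fell by 2.10 on the log2 scale (standard error 0.222), more than any of the 6 genes. The 95% interval of Aspn, from -2.31 to -1.20, also holds this fall, so Ibsp and Aspn were not separated. Tnn (tenascin-N), Smoc1 (a calcium-binding matricellular protein) and Igsf10 had log2 fold changes of -1.36, -1.18 and -1.89. P3h2, a prolyl hydroxylase that modifies collagen chains, had -1.53. The means of these 6 genes in control cells were at or below 4.48 FPKM, whereas those of Col3a1, Thbs2, Postn and Col6a2 were at 28.9 FPKM or more.

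Proteases of the matrix did not move one way. Mmp13, collagenase-3, went from 7.23 ± 0.568 to 2.08 ± 0.0896 FPKM, a log2 fold change of -1.80 (adjusted p = 1.4e-27 by edgeR, standard error 0.152). Ctsk, cathepsin K, the main collagen-degrading protease of osteoclasts, went from 5159 ± 434 to 2444 ± 90.3 FPKM (SD, n = 3), with -1.08 (standard error 0.079). Mmp12, the macrophage elastase, was the gene that rose, from 4.66 ± 0.546 to 11.5 ± 1.09 FPKM, its log2 fold change being 1.31 (adjusted p = 5.8e-35 by edgeR, standard error 0.0953).

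Genes that mark the cells such a culture could hold were also in the table, and they did not all move in the direction of the 6 genes. Of 19 genes of fibroblasts and osteoblasts, 2 were in the table and both were more than 2-fold lower, as 56.9% of the table was: Thy1, a fibroblast surface protein also found on T cells, and Lrrc15, with log2 fold changes of -1.38 and -1.37. Their summed level was 2.02 to 2.41 FPKM without mogrol and 0.77 to 0.94 FPKM in the mogrol libraries. Aspn, the least abundant of the 6 genes, had 1.18 to 1.9 and 0.31 to 0.58 FPKM. The sum of the 6 genes had a mean of 197 FPKM without and 83.5 FPKM with mogrol. Levels of different genes do not give the share of a cell type. Of 17 osteoclast genes, 3 (Ctsk, Ckb and Tfrc) were in the table and all 3 were more than 2-fold lower (56.9% of the table), at a summed 7203 to 8229 FPKM without mogrol and 3465 to 3699 FPKM with it. Of 18 macrophage genes, 10 were in the table and all 10 were more than 2-fold higher (among them Cx3cr1, Cybb and Itgax), against 41.3% of the table, at a summed 77.7 to 97.5 FPKM against 198 to 217 FPKM. Of 16 T and NK cell genes, 4 (Lat, Itgb7, Gzmc and Gzmd) were in the table and all 4 were more than 2-fold lower (again 56.9% of the table), at 37.9 to 46.0 against 16.1 to 17.2 FPKM, and of 9 endothelial genes Angpt2 was lower, at 6.51 to 6.81 against 2.94 to 3.22 FPKM. No marker in the table was at 0, and the defining stromal genes Pdgfra, Pdgfrb and Runx2 and the macrophage genes Adgre1 and Csf1r were not analysed here. The table held only genes selected for a 2-fold change, so little but the direction of these markers was open. The lists were also drawn up with earlier results of these data known. Their counts are therefore descriptions and no evidence about cell types. The study's own values for Acp5, Oscar, Siglec15, Mmp9 and Atp6v0d2, osteoclast genes outside the table, were falls of less than 2-fold. The part of these cell types in the levels of the 6 genes was not tested.

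Set against Ctsk in the same library, Postn was the one gene of the 6 whose groups did not overlap. It was 0.809, 0.675 and 0.761% of the FPKM of Ctsk in the controls, against 0.577, 0.577 and 0.582% with mogrol. Col3a1 was 1.29, 1.04 and 1.26% of Ctsk against 0.934, 0.896 and 1.09%, which overlapped, and the other 4 genes overlapped as well. Relative to Ckb, the brain-type creatine kinase that is abundant in osteoclasts, Postn, Col3a1 and Thbs2 were lower in every mogrol library than in any control library. Relative to Tfrc, the transferrin receptor, Thbs2, Col6a2 and Igfbp5 were instead higher in every mogrol library, at 9.92 to 12.4% against 8.46 to 9.82% for Thbs2. These ratios are descriptions with 3 libraries a group, and all 3 reference genes were themselves lower with mogrol. Of all pairs of lower genes in the table, 35.7% had ratios whose groups did not overlap. Nothing particular to Postn or to the other genes is therefore read from these counts.

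The genes whose pattern over the 6 libraries was most like the median of the 6 genes were sought among 89 other genes with a mean of at least 50 reads. Likeness was the root mean square distance of log2 RPM after each gene was centred on its own mean. The nearest were Akr1c18 (distance 0.0832), Acad10 (0.108), Angpt2 (0.109), Card14 (0.111) and Lat (0.113), none of which is in the matrix list. For single genes the nearest was Aldh1a3 for Postn (0.0812), Tgtp2 for Col3a1 (0.125), Card14 for Thbs2 (0.0632), Lat for Col6a2 (0.0754), Ifi44 for Aspn (0.249) and Tspan7 for Igfbp5 (0.0889). Among the 6 genes themselves, Thbs2 with Col6a2 (0.0926) and Postn with Col3a1 (0.0939) were nearest to each other, and Aspn with Igfbp5 were farthest apart (0.577). For 5 of the 6 genes, Col3a1 being the exception, a gene outside the 6 was nearer than any of the other 5. The nearest of 89 outside genes was set here against the nearest of 5, which favours an outside gene by number alone. Centring on the mean of all 6 libraries also keeps the difference between control and mogrol, so genes with similar fold changes lie close together. Whether the 6 genes moved together more than other lowered genes cannot be read from this count.

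The size of the falls depended on the scaling of the libraries, since a table of selected genes cannot give its own reference. With the size factors that the authors' mean normalized counts imply, every log2 fold change was about 0.07 lower, and Igfbp5 at -1.07 passed the 2-fold limit. TMM over the 109 genes moved the median log2 fold change by 0.37 and made 55.6% of the called genes higher ones, against 42.1% with the library totals. Median-of-ratios factors over the 109 genes moved it by 0.98 and made 84.9% higher ones. Under the latter all 6 genes kept a negative sign, and Aspn (-0.78), Postn (-0.46) and Col3a1 (-0.39) still passed the adjusted p-value, while Thbs2 (-0.16, adjusted p = 0.0778), Col6a2 (-0.03, adjusted p = 0.745) and Igfbp5 (-0.01, adjusted p = 0.922, all by edgeR) did not.

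**Figure D4:**
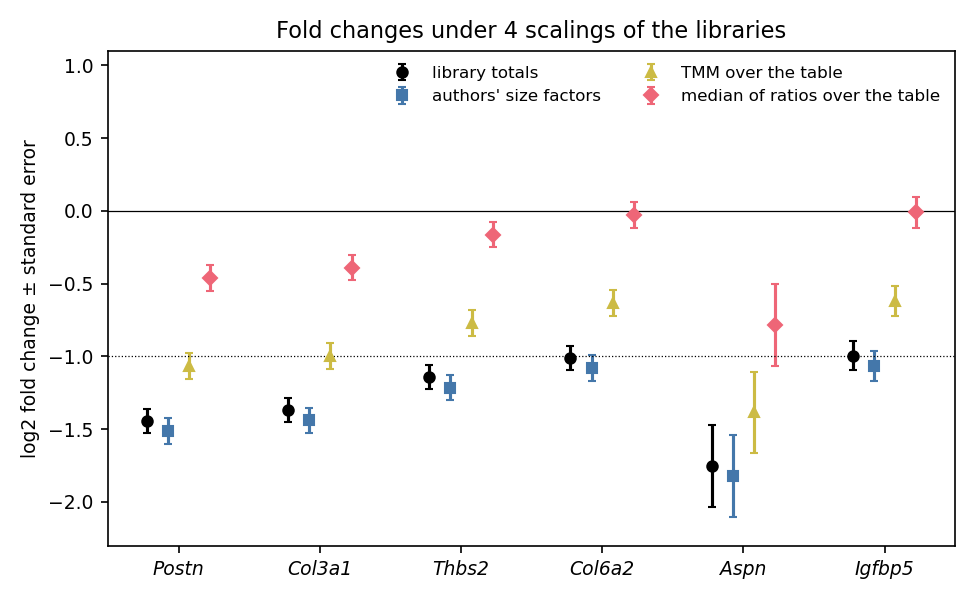
Log2 fold change with standard error (vertical axis) of the 6 genes under 4 scalings of the libraries, namely library totals (black circles), the size factors of the authors (blue squares), TMM over the table (yellow triangles) and median of ratios over the table (red diamonds); the dotted line marks 2-fold. A scaling shifts all genes of the table by about the same amount by construction, and the red diamonds of Col6a2 and Igfbp5 lie at -0.03 and -0.01.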

How the data were processed

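RNA-seq of RANKL-stimulated BMMs was carried out by the authors on 3 control and 3 mogrol libraries. Per the labels' processing notes, cutadapt 1.9.1, HISAT2 2.0.1 and HTSeq 0.6.1 were used with GRCm38. The use of strand is not given in the sources used here. The single deposited table holds the authors' raw read counts, which are not normalized. It also holds FPKM, which the authors scaled by gene length and library total and rounded to 2 decimals, and a mean normalized count, a signal that the authors averaged over 6 libraries and deposited. The authors' log2 fold changes, standard errors, test statistics, p-values and regulation calls are also in the table and were not used. Columns of other samples numbered 0.

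Groups follow the condition named in the labels. The total of each library was worked out from count, length and FPKM to within 35.7 reads. Counts were tested with edgeR 4.0.16 (R 4.3.3, quasi-likelihood test, recovered totals as library sizes, no filter, no covariate) over 109 genes with Benjamini-Hochberg adjustment. The limits were an adjusted p of 0.05 and, for counts of genes, 2-fold. A standard error is the fold change (log2) over the root of F. The test shares its estimate of spread over the genes of the table. A standard error is therefore not the spread of that gene alone. The test was run on simulated counts of 760 genes for the control against mogrol comparison. Of these, 200 were changed by 1.5 on the log2 scale. It called 197 of them and 0 of the unchanged genes. A call needed both limits, so what the adjusted p alone would call was not tested. Unlike the 760 genes, all 109 genes of the table had been selected as changed. Alternatives were other scalings, DESeq2 1.42.0, a filter at 50 reads, a replicate block, leaving out 1 library at a time, and limma 3.58.1 on FPKM with a pseudocount of 0.1 or 1 on the log2 scale. Gene positions and overlaps came from GENCODE M21, which gave all 6 genes the same start, end and exon bases as the table.

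The 6 genes and all gene lists were chosen with earlier results of these data known. Named were the 6 genes, the list genes that the table holds, and the genes nearest to them over 6 libraries.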

Additional observations from a re-analysis of the deposited data

How the results depend on the processing

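Of 83 recomputed fold changes of the 6 genes, 80 kept their sign and their side of the adjusted p, 3 lost that call and none reversed. Over the same 83, 17 lay on the other side of 2-fold than with library totals, 6 of them for Col6a2 and 4 for Igfbp5. Of 74 other recomputed values (counts and the summed level), 61 stayed within 1.5 times or 1 SD and 13 moved. TMM and median-of-ratios factors centre on 109 genes that were chosen as changed, which by construction moves all falls toward 0. With median-of-ratios factors the calls of Thbs2 (-0.16), Col6a2 (-0.030) and Igfbp5 (-0.010) were lost, and 0 of the 6 genes were more than 2-fold lower by edgeR, although 3 of them passed 0.05 both before and after adjustment of p. Under TMM 2 of the 6 genes were more than 2-fold lower, and with limma on log2(FPKM + 1) 3 were, against 5 with library totals. The table then held 36 lowered genes with TMM, 8 with median-of-ratios factors and 27 with limma on log2(FPKM + 1), against 62. The last gave 25 higher genes, against 45. Of the other matrix genes, 4, 1 and 3 were lower in the same order, against 8. A pseudocount of 1 shrinks low genes by construction. The log2 ratio of the summed reads of the 6 genes was -1.33 with the authors' size factors, -0.88 with TMM and -0.28 with median-of-ratios factors, against -1.25.

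With each library left out in turn, the log2 fold change ranged from -1.47 to -1.43 for Postn, -1.44 to -1.33 for Col3a1, -1.17 to -1.11 for Thbs2, -1.06 to -0.97 for Col6a2, -1.98 to -1.55 for Aspn and -1.08 to -0.91 for Igfbp5. Between 4 (without control replicate 3) and 6 (without control replicate 1) of the 6 genes were more than 2-fold lower, and 8 to 12 pairs did not overlap. The filter at 50 reads left no value for Aspn.

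Deviations of libraries with the same replicate number correlated at 0.0875, 0.213 and 0.072 over genes. For control replicates 1 and 2 the same number was the best match, whereas control replicate 3 correlated best with mogrol replicate 1 (0.0781). The correlations were low, so equal numbers were not treated as pairs in the main fit. The fit with the replicate block gave 62 lower and 45 higher genes and 5 of the 6 genes, the same counts as without it, with -1.44 for Postn, -1.37 for Col3a1, -1.14 for Thbs2, -1.01 for Col6a2, -1.76 for Aspn and -0.99 for Igfbp5. With the block the standard error was smaller for every one of the 6 genes but Aspn. For Postn it was 0.0668 against 0.0837 without the block, and for Aspn 0.294 against 0.281. Depth limits Aspn, at 13 to 83 reads per library. Intervals rest on 3 libraries a group only, with an estimate of spread shared over the table.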
